A study of Mus musculus with 6 samples.

Results

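The genes of translation initiation, elongation and termination were examined in RNA sequencing profiles of mouse oocytes and early embryos from YAP-null and wild-type females. The set was taken by gene symbol: every Eif1 to Eif6 gene and every Eef1 and Eef2 gene, with the release factor genes Etf1 and Gspt1 and the poly(A)-binding protein genes Pabpc1 and Pabpc4. Eif4e1b, Eif2s3y, the Argonaute genes once named Eif2c and the Eif2ak kinase genes were left out. This gave 61 genes of the 23308 symbols in the tables. The rule itself used symbols and no measured value, but it was set with earlier results of these data known.

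The libraries were polyadenylated RNA of 60 oocytes or embryos each, from ICR-background females of 21 to 23 days injected with PMSG and hCG, the gonadotropins used for superovulation, and mated where embryos were wanted. The groups were YAP-null embryos at the 4-cell stage (1 library), wild-type embryos at the 4-cell stage (1 library), YAP-null oocytes at the germinal vesicle (GV) stage (2 libraries) and wild-type GV oocytes (2 libraries). GV oocytes are fully grown and arrested before the meiotic divisions, and by its title the series asks whether YAP from the oocyte activates the genome of the early embryo. For the null groups the labels give the mothers as YAP-/- and the allele as Yap1-deleted, without a promoter or Cre line and without the genotype of the fathers. YAP-null embryos therefore means embryos of such mothers, and whether they carried a Yap1 allele from the father is not given. The titles and stage fields, which were used, name 4-cell embryos where the source field names GV oocytes. Nothing in the labels says that the 2 GV libraries of a genotype came from separate animals, so p-values measure only the spread between these libraries.

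Translation begins when eIF4E binds the cap of an mRNA, the scaffold eIF4G joins it to the helicase eIF4A and to the poly(A)-binding protein, and eIF3 brings in the small ribosomal subunit with the initiator tRNA carried by eIF2. After the start codon is found, eEF1A delivers aminoacyl-tRNAs and eEF2 moves the ribosome along, until the release factors free the finished protein. Growing oocytes store many mRNAs that are translated later, and after fertilisation these are degraded while the embryo begins to transcribe its own genes.

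Levels are given in FPKM, mapped fragments per kilobase of transcript scaled to the size of the library, as the authors deposited them. Differences are on the scale log2(FPKM + 1), which understates the change of genes near or below 1 FPKM. Yap1 itself had 33.3 FPKM in null and 89.7 FPKM in wild-type embryos, and 10.8 and 10.04 FPKM in null and 248 and 153 FPKM in wild-type oocytes, where null stands for YAP-null here and below. Between 9984 and 10823 genes reached 1 FPKM per library, and FPKM summed to between 362849 and 462324. The tables hold no counts, so the depth is unknown. Summed over 9 oocyte markers, the level was 1119 FPKM in null and 165 FPKM in wild-type embryos and lay between 7077 and 10787 FPKM in the GV libraries, with all 9 above 0 in each. The 12 granulosa and cumulus markers summed to 94.0 FPKM in null and 180.4 FPKM in wild-type embryos. Of these sums Nr5a2, a gene also used by the early embryo, held 92.1 and 178.9 FPKM. In GV libraries the 12 markers summed to between 39.7 and 48.9 FPKM. There Cyp19a1 lay between 9.51 and 13.6 FPKM, Inha between 6.12 and 15.6 FPKM and Amh between 3.05 and 4.46 FPKM. Each of these genes was below 1 FPKM in both embryo libraries. Ptx3 was at 0 in every library and Fshr in both embryo libraries. The 5 blood markers summed to 25.9 FPKM in null and 68.3 FPKM in wild-type embryos and to between 0 and 1.54 FPKM in GV libraries. Among them Hba-a1 was nearly equal, at 25.9 FPKM in null and 26.3 FPKM in wild-type embryos. Hba-a2 had 0.0668 FPKM in null and 26.0 FPKM in wild-type embryos, and Hbb-b2 had 0 and 15.9 FPKM. The 6 embryo markers summed to 627 FPKM in null and 795 FPKM in wild-type embryos and to between 208 and 331 FPKM in GV libraries. Among them Pou5f1 was higher in null embryos, at 322 FPKM in null and 207 FPKM in wild type. The others were lower in null embryos: Dppa2 (289 and 484 FPKM in null and wild type), Gata6 (5.03 and 52.1), Tdgf1 (6.48 and 41.8), Nanog (4.49 and 10.1) and Cdx2 (0 and 0.427). The part of these lists in the results below was not tested. In bulk libraries fewer cells of a type and less RNA per cell cannot be told apart.

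The translation factor genes as a whole held more of the summed FPKM at the 4-cell stage than in GV oocytes. Their sum was 8560 FPKM in null and 13180 FPKM in wild-type embryos, against 6789.9 and 4652 FPKM in null and 6696 and 4876 FPKM in wild-type oocytes. As a share of all FPKM this was 2.22% in null and 2.99% in wild-type embryos, and between 1.28% and 1.83% in GV libraries. Both 4-cell libraries lay above all GV libraries in sum and in share. At a mean of 1 FPKM or more, 60 of the 61 genes entered the comparison of the stages. The remaining gene was Eef1a2, the eEF1A form of neurons and muscle, listed at 0 in 5 libraries and at 0.113 FPKM in the wild-type 4-cell library.

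Of these 60 genes, 28 rose and 4 fell in 4-cell embryos relative to GV oocytes at a Benjamini-Hochberg adjusted p under 0.05 in limma's moderated test with genotype as a term. Over all 11451 genes tested, 28.2% rose and 27.8% fell. The median difference was 1.33 over the translation factor genes and -0.10 over all genes. It was 1.00 within YAP-null and 1.53 within wild-type libraries, where all genes had medians of -0.00 and -0.14. Each of the 28 genes was higher, and each of the 4 lower, in both 4-cell libraries than in both GV libraries of the same genotype. The ranges of the stages did not overlap for 35 genes that were higher and 5 that were lower at the 4-cell stage, where the shares over all genes were 35.1% and 35.2%. The count rests in part on the wild-type 4-cell library: without it 9 of 60 genes rose and 3 fell, all of them among the genes above, where 14.7% of all genes rose and 11.7% fell, so the share that rose was then near that of all genes. Without the YAP-null 4-cell library 22 rose and 2 fell, where 18.7% of all genes rose and 18.6% fell. The stage test compares 2 embryo libraries of different genotype with 4 oocyte libraries, so the spread among embryos of 1 genotype does not enter it.

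**Figure D1:**
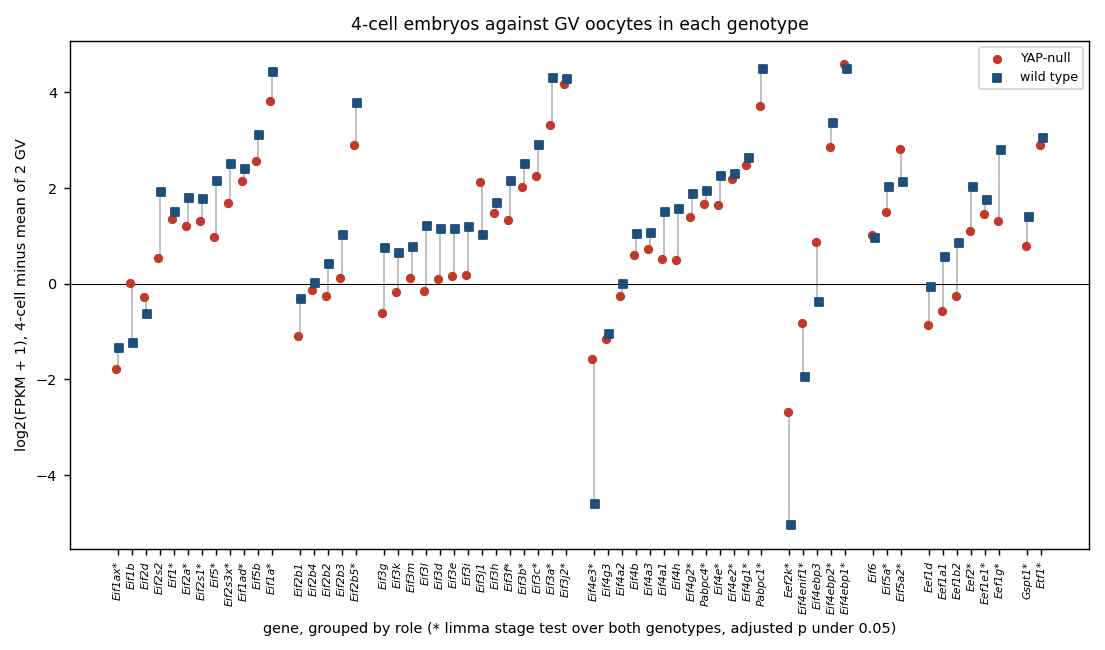
Difference in log2(FPKM + 1) between the 4-cell library and the mean of the 2 GV libraries of the same genotype for 60 translation factor genes by role, YAP-null as circles and wild type as squares, with an asterisk at the 32 genes called by limma. Most points lie above 0, Eif4e3 and Eef2k lie lowest, and the wild-type point lies further from 0 than the YAP-null one for most of the called genes.

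At the 4-cell stage the translation factor genes were mostly lower in the YAP-null library. Of 60 genes kept, 51 (85.0%) were lower in YAP-null than in wild-type embryos, where 47.8% of all 10854 genes were, and 9 were higher, where 52.2% of all genes were. At a mean of 10 FPKM or more, 50 of 57 were lower (54.1% of all 5612 such genes) and 7 higher (45.9%). The median difference, YAP-null minus wild type, was -0.50 over these genes and 0.05 over all genes. A difference of at least 2-fold was found for 10 genes that were lower, where the share over all genes was 9.97%, and for 3 that were higher, where it was 17.7%. All 13 had a mean of at least 10 FPKM, and over all genes at that level the shares were 8.05% lower and 12.5% higher. Other scalings of the libraries gave between 5 and 18 genes at least 2-fold lower and between 2 and 5 at least 2-fold higher, and the median of these genes stayed below that of all genes in each. There is 1 library per genotype, so the difference has no replicate check and no test. For comparison, the 2 YAP-null GV libraries differed by at least 2-fold for 20 of 59 genes, where 26.7% of all genes did. The 2 wild-type GV libraries did so for 18, where 23.3% of all genes did. Both counts exceed the 13 of 60 between the embryo libraries, where 27.7% of all genes differed. The 59 genes also shifted together between GV libraries of 1 genotype: library 2 minus library 1 had a median of -0.27 in null and -0.20 in wild-type oocytes (all genes 0.07 and 0.10). In null oocytes 43 genes were below 0 (46.7% of all genes were), and in wild-type oocytes 39 (45.4%). The shift between the embryo libraries was larger than either, but of the same order.

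The direction of the 4-cell difference was also counted among the genes called between the stages. Of the 28 genes that rose between the stages, 27 were lower in the YAP-null than in the wild-type 4-cell library (median -0.50), the exception being Eif5a2, where 64.7% of all 3228 genes that rose were lower (median -0.22). The share among all 60 translation factor genes, 51, was already high, with the same median. Of the 4 that fell, 3 were higher in YAP-null embryos (Eif4e3, Eef2k and Eif4enif1) and Eif1ax was lower (median 1.76), where 66.7% of all 3180 genes that fell were higher (median 0.43). Both comparisons use the same 2 embryo libraries and are not independent. The summed oocyte markers, given above, were also higher in the YAP-null than in the wild-type 4-cell library and lower in both than in GV oocytes. Their part in these differences was not tested.

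**Figure D2:**
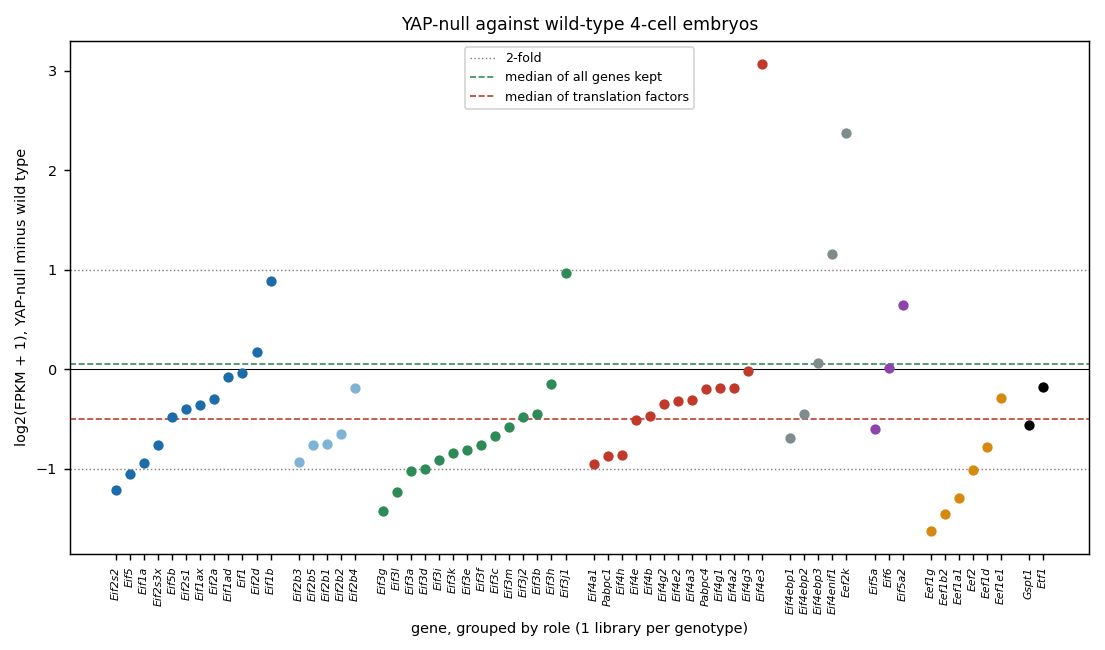
Difference in log2(FPKM + 1), YAP-null minus wild-type embryos, for each of 60 translation factor genes by role, with 1 library per genotype; dotted lines mark 2-fold and dashed lines the medians of these genes (-0.50) and of all genes (0.05). Most points lie below 0, 10 of them by at least 2-fold, and Eif4e3, Eef2k and Eif4enif1 lie at least 2-fold above it.

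Among the 12 genes of start codon recognition and the ternary complex, 7 rose and 1 fell between the stages. Eif1, whose product guards the choice of the start codon, had 502 FPKM in null and 513 FPKM in wild-type embryos, and 205 and 185 FPKM in null and 187 and 173 FPKM in wild-type oocytes. It was high in both embryo libraries, which hardly differed (-0.03), and lower in all GV libraries, a stage difference of 1.43 ± 0.35 (SE; adjusted p = 0.0147). The call was lost without the wild-type 4-cell library (adjusted p = 0.0618) or wild-type GV library 1 (adjusted p = 0.0511). Its close paralog Eif1b had 181 FPKM in null and 97.0 FPKM in wild-type embryos, and 141 and 225 FPKM in null and 192 and 275 FPKM in wild-type oocytes. The stages overlapped for Eif1b (stage difference -0.61, adjusted p = 0.298), and the YAP-null embryos stood above the wild-type ones by 0.89. Eif1b made up 26.5% of the summed Eif1 and Eif1b level in YAP-null and 15.9% in wild-type embryos, and between 40.8% and 61.4% in GV oocytes.

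eIF1A, which works beside eIF1 on the small subunit, is encoded by the X-linked Eif1ax (chrX:155810127-155823631, build mm9) and by Eif1a (chr18:46757358-46769879). Eif1a had 25.9 FPKM in null and 50.9 FPKM in wild-type embryos, and 0.362 and 1.70 FPKM in null and 1.14 and 1.72 FPKM in wild-type oocytes. It was near the floor in all 4 GV libraries and rose by 4.12 ± 0.40 (SE; adjusted p = 0.000539), and with any 1 library left out its adjusted p was between 0.000834 and 0.0249. Eif1ax had 70.7 FPKM in null and 90.9 FPKM in wild-type embryos, and 285 and 213 FPKM in null and 249 and 216 FPKM in wild-type oocytes. It fell, by 1.56 ± 0.36 on the log2 scale (SE; adjusted p = 0.0111), and the call was lost without the YAP-null 4-cell library (adjusted p = 0.0714). Eif1a thus made up 26.8% of the summed level of the pair in YAP-null and 35.9% in wild-type embryos, against 0.127% and 0.795% in YAP-null and 0.455% and 0.790% in wild-type oocytes. Reads of such close copies can be split between the models, and how the authors' tool assigned them is not stated. Eif1ad, an eIF1A domain gene, had 43.3 FPKM in null and 45.8 FPKM in wild-type embryos, and 9.37 and 8.69 FPKM in null and 7.59 and 8.10 FPKM in wild-type oocytes. The embryo libraries were nearly equal and both above all oocyte libraries (2.27 ± 0.30 SE, adjusted p = 0.00134).

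The eIF2 subunits carry the initiator tRNA. Eif2s2, the beta subunit, had 193 FPKM in null and 449 FPKM in wild-type embryos, and 136 and 128 FPKM in null and 105 and 132 FPKM in wild-type oocytes. Every GV library was below both embryo libraries, and the wild-type embryos stood apart from all others (4-cell difference -1.21; stage difference 1.23 ± 0.44 SE, adjusted p = 0.0508). The alpha subunit gene Eif2s1 and the gamma subunit gene Eif2s3x rose by 1.54 and 2.10; both calls were lost without the YAP-null 4-cell library (adjusted p = 0.0793 and 0.0578) and without the wild-type one (0.162 and 0.143). Their 4-cell differences were -0.40 and -0.77. Eif5, the GTPase-activating protein of eIF2, had 163 FPKM in null and 341 FPKM in wild-type embryos, and 86.7 and 78.9 FPKM in null and 74.6 and 78.8 FPKM in wild-type oocytes. Oocyte levels lay close together and below both embryo libraries, and the null embryos stood below the wild-type ones (4-cell difference -1.06). The stage difference of Eif5 was 1.56 ± 0.39 (SE; adjusted p = 0.0159), and the call was lost without the wild-type 4-cell library (adjusted p = 0.0828) or wild-type GV library 1 (adjusted p = 0.0516). Eif2a, an alternative initiator tRNA carrier whose model overlaps that of Serp1, had 38.2 FPKM in null and 47.2 FPKM in wild-type embryos, and 16.6 and 15.4 FPKM in null and 13.8 and 12.2 FPKM in wild-type oocytes. It rose by 1.496 ± 0.31 (SE; adjusted p = 0.00771), and the call was lost without the wild-type 4-cell library (adjusted p = 0.0678). Eif5b, the subunit-joining GTPase, had 73.1 FPKM in null and 103 FPKM in wild-type embryos, and 2.19 and 47.4 FPKM in null and 2.01 and 47.2 FPKM in wild-type oocytes. The GV libraries numbered 1 and 2 differed more than the stages did, and the stage difference of 2.84 missed the threshold (adjusted p = 0.127). Eif2d, a tRNA-delivering factor, stayed between 25.9 and 48.4 FPKM in the 6 libraries.

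eIF2B, the exchange factor that recharges eIF2 with GTP and is the target of stress signalling, has 5 subunits. In GV oocytes the most abundant subunit mRNA exceeded the least abundant by 22.1 and 13.7 times in the YAP-null and 19.2 and 18.8 times in the wild-type libraries, and in embryos by 2.21 times in the YAP-null and 1.98 times in the wild-type library. The lowest subunit in every GV library was Eif2b5, which encodes the catalytic epsilon subunit. Eif2b5 had 66.5 FPKM in null and 114 FPKM in wild-type embryos, and 9.99 and 6.44 FPKM in null and 10.5 and 5.05 FPKM in wild-type oocytes. It was the eIF2B gene that rose, by 3.34 ± 0.43 (SE; adjusted p = 0.00128), and with any 1 library left out its adjusted p was between 0.00158 and 0.0457. Eif2b1, encoding the alpha subunit, was highest in GV libraries 1 of both genotypes, with 65.4 (YAP-null) and 111 FPKM (wild type) at the 4-cell stage, and 221, 88.1 FPKM (YAP-null) and 203, 94.7 FPKM (wild type) at the GV stage. Eif2b4, the delta subunit, had 80.3 (YAP-null) and 92.0 FPKM (wild type) at the 4-cell stage, and 112, 68.5 FPKM (YAP-null) and 115, 71.6 FPKM (wild type) at the GV stage. Both ranges overlapped between the stages. At the 4-cell stage 5 of 5 subunits were lower in the YAP-null library, where 47.8% of all genes were. The differences lay between -0.93 (Eif2b3) and -0.19 (Eif2b4), with a median of -0.75. Between oocyte libraries 2 and 1 the same subunits had medians of -0.70 in null and -0.93 in wild-type oocytes.

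**Figure D3:**
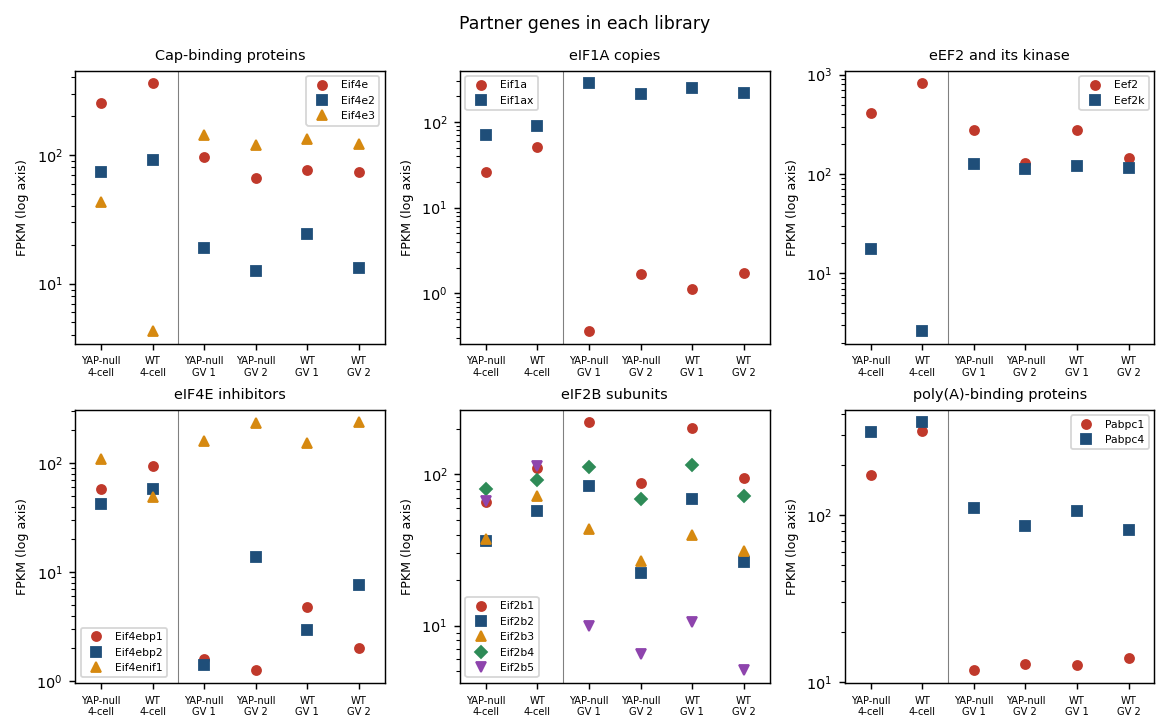
Levels in FPKM (log axis) of 6 sets of partner genes in the 6 libraries, 1 point per gene and library, with 4-cell libraries left of GV libraries and YAP-null left of wild type. Eif4e3 and Eef2k are high in GV oocytes and lower in embryos, lowest in the wild-type library, while Eif1a, Eif2b5 and Pabpc1 are higher in both embryo libraries than in every GV library.

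eIF3, the large scaffold that binds the small ribosomal subunit, was represented by 14 genes, of which 5 rose and 0 fell. Eif3c and Eif3b, core subunits, rose by 2.58 ± 0.34 (SE; adjusted p = 0.00142) and 2.27 ± 0.33 (SE; adjusted p = 0.00201); with any 1 library left out the largest adjusted p was 0.0215 for Eif3c and 0.0307 for Eif3b. Eif3c had 273 FPKM in null and 435 FPKM in wild-type embryos, and 55.3 and 57.5 FPKM in null and 52.3 and 63.2 FPKM in wild-type oocytes. The embryo libraries were high, the wild-type one most, and the 4 oocyte libraries lay close together. Eif3a, the core subunit on which the complex is built, was the lowest of 12 eIF3 subunits in every GV library. It had 112 FPKM in null and 229 FPKM in wild-type embryos, and 5.10 and 20.4 FPKM in null and 6.78 and 16.7 FPKM in wild-type oocytes. It rose by 3.80 ± 0.63 (SE; adjusted p = 0.00317), and the call was lost without the wild-type 4-cell library (adjusted p = 0.0988); between embryos it differed by -1.02. Eif3f, a subunit with a terminal oligopyrimidine mRNA, rose by 1.73 ± 0.40 (SE; adjusted p = 0.0112), and the call was lost without the wild-type 4-cell library (adjusted p = 0.133).

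Other eIF3 subunits did not pass the stage test. Eif3h had 267 FPKM in null and 297 FPKM in wild-type embryos, and 167 and 54.4 FPKM in null and 155 and 54.2 FPKM in wild-type oocytes. Embryos lay above all oocyte libraries, but GV libraries 1 and 2 lay further apart than GV library 1 and the embryos (stage difference 1.58 ± 0.62 SE, adjusted p = 0.0704). Eif3i had 107 (YAP-null) and 201 FPKM (wild type) at the 4-cell stage, and 154, 56.4 FPKM (YAP-null) and 144, 52.6 FPKM (wild type) at the GV stage. Eif3g, a subunit that acts in scanning, had 89.1 (YAP-null) and 241 FPKM (wild type) at the 4-cell stage, and 207, 89.8 FPKM (YAP-null) and 178, 113 FPKM (wild type) at the GV stage. Eif3l, a peripheral subunit, had 65.2 (YAP-null) and 155 FPKM (wild type) at the 4-cell stage, and 124, 42.3 FPKM (YAP-null) and 111, 39.2 FPKM (wild type) at the GV stage. For these 3 genes the wild-type embryos were above all oocyte libraries, while the null embryos were within their range for Eif3i and Eif3l and just below it for Eif3g. The 4-cell difference was -0.91 for Eif3i, -1.42 for Eif3g and -1.24 for Eif3l, and it was -1.01 for Eif3d, a cap-binding subunit. Over the complex 13 of 14 genes were lower in YAP-null embryos (47.8% of all genes were), with a median of -0.79. Between oocyte libraries 2 and 1 the same genes had medians of -0.52 in null and -0.36 in wild-type oocytes.

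The exception was Eif3j1. Eif3j1 and Eif3j2 are near-identical genes encoding the loosely bound eIF3j, and their models overlap over 25007 bases, so their separate values are uncertain. Eif3j1 had 50.6 (YAP-null) and 25.4 FPKM (wild type) at the 4-cell stage, and 9.65, 12.2 FPKM (YAP-null) and 3.36, 37.9 FPKM (wild type) at the GV stage. Eif3j2 had 109 (YAP-null) and 153 FPKM (wild type) at the 4-cell stage, and 0.00410, 36.1 FPKM (YAP-null) and 7.16, 6.67 FPKM (wild type) at the GV stage. The oocyte values of the pair were highest in different libraries, and Eif3j2, although it rose in the test (4.23 ± 1.30 SE, adjusted p = 0.0319), lost the call without the YAP-null 4-cell library (adjusted p = 0.239) and without the wild-type 4-cell library (adjusted p = 0.277). Their sum was alike in same-numbered oocyte libraries, at 9.66 and 48.3 FPKM in null and 10.5 and 44.6 FPKM in wild-type oocytes, and was 159.6 FPKM in null and 178.4 FPKM in wild-type embryos. The sum differed by -0.16 between the embryos and by 2.89 between the stages.

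Of the 13 genes grouped under cap and poly(A) binding, which include the eIF4A helicases, their cofactors and the eIF4G scaffolds, 6 rose and 1 fell. Pabpc1, the main cytoplasmic poly(A)-binding protein of somatic cells, had 173 FPKM in null and 318 FPKM in wild-type embryos, and 11.7 and 12.8 FPKM in null and 12.7 and 14.0 FPKM in wild-type oocytes. It was low in all oocyte libraries and rose by 4.10 ± 0.33 (SE; adjusted p = 0.000292); with any 1 library left out its adjusted p was between 0.000819 and 0.00912. Pabpc4, a second cytoplasmic poly(A)-binding protein, had 312 FPKM in null and 358 FPKM in wild-type embryos, and 109.5 and 85.4 FPKM in null and 106 and 81.6 FPKM in wild-type oocytes. It rose by 1.81 ± 0.35 (SE; adjusted p = 0.00576), and the call was lost without the wild-type 4-cell library (adjusted p = 0.0502). Pabpc1 made up 35.8% of the summed level of both in YAP-null and 47.1% in wild-type embryos, against 9.66% and 13.0% in YAP-null and 10.7% and 14.6% in wild-type oocytes. Pabpc1 differed by -0.87 between the embryo libraries and Pabpc4 by -0.20.

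The cap-binding protein genes Eif4e and Eif4e3 changed in opposite directions. Eif4e, the cap-binding protein of general initiation, had 254 FPKM in null and 362 FPKM in wild-type embryos, and 97.0 and 66.6 FPKM in null and 76.0 and 73.8 FPKM in wild-type oocytes. It rose by 1.95 ± 0.36 (SE; adjusted p = 0.00493), and the call was lost without the wild-type 4-cell library (adjusted p = 0.0522). Eif4e3, a paralog with a different way of holding the cap, had 43.2 FPKM in null and 4.27 FPKM in wild-type embryos, and 144 and 119 FPKM in null and 132 and 123 FPKM in wild-type oocytes. It fell by 3.09 ± 0.68 on the log2 scale (SE; adjusted p = 0.00923), and with any 1 library left out its adjusted p was between 0.0045 and 0.041. Within YAP-null libraries the stage difference of Eif4e3 was -1.57 and within wild-type libraries -4.60. Eif4e3 was 10.1 times as high in the YAP-null as in the wild-type 4-cell library, the largest 4-cell difference of the 60 genes. It made up 11.7% of the summed Eif4e, Eif4e2 and Eif4e3 level in YAP-null and 0.932% in wild-type embryos, and between 55.4% and 60.0% in oocytes. Eif4e2, a cap-binding protein linked to repression, rose by 2.24 ± 0.38 (SE; adjusted p = 0.0033), and the call was lost without the wild-type 4-cell library (adjusted p = 0.062).

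Of the eIF4A helicases, Eif4a1 had 399 FPKM in null and 776 FPKM in wild-type embryos, and 337 and 233 FPKM in null and 303 and 248 FPKM in wild-type oocytes. Eif4a3, which also belongs to the exon junction complex, had 290.3 FPKM in null and 359 FPKM in wild-type embryos, and 257 and 118 FPKM in null and 254 and 116 FPKM in wild-type oocytes. Both were higher in both embryo libraries than in every oocyte library without passing the test (stage differences 1.00 ± 0.44 SE, adjusted p = 0.0947, and 0.90 ± 0.52 SE, adjusted p = 0.183). Eif4h, which stimulates the helicase, had 126 FPKM in null and 229.6 FPKM in wild-type embryos, and 94.5 and 82.7 FPKM in null and 84.3 and 70.8 FPKM in wild-type oocytes. Its stage difference was 1.03 ± 0.38 (SE; adjusted p = 0.0586). The 4-cell difference was -0.96 for Eif4a1, -0.31 for Eif4a3 and -0.86 for Eif4h, with YAP-null embryos lower in each. Eif4g1, the main scaffold, and Eif4g2, a form without the eIF4E site, rose by 2.56 and 1.64. Eif4g1 lost its call without either 4-cell library (adjusted p = 0.143 without the YAP-null and 0.182 without the wild-type one), and for Eif4g2 the largest adjusted p was 0.0462. Eif4g3, a scaffold needed in mouse male meiosis, was level in embryos, at 6.88 FPKM in null and 6.97 FPKM in wild type.

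The inhibitors of eIF4E and eEF2 held the extremes of the stage comparison, with 2 of 5 genes up and 2 down. Eif4ebp1, which sequesters eIF4E when mTOR is inactive, had 57.6 FPKM in null and 93.6 FPKM in wild-type embryos, and 1.60 and 1.25 FPKM in null and 4.79 and 2.02 FPKM in wild-type oocytes. It was low in all oocyte libraries and rose by 4.55 ± 0.38 (SE; adjusted p = 0.000321), the largest rise of the 60 genes; with any 1 library left out its adjusted p was between 0.000727 and 0.0194. Eif4ebp2, its paralog, had 42.5 FPKM in null and 58.5 FPKM in wild-type embryos, and 1.41 and 13.8 FPKM in null and 2.92 and 7.62 FPKM in wild-type oocytes. It rose by 3.11 ± 0.76 (SE; adjusted p = 0.014), and the call was lost without the YAP-null 4-cell library (adjusted p = 0.136) or the wild-type 4-cell library (adjusted p = 0.204). Eif4enif1, encoding the eIF4E transporter of stored messenger particles, had 110.0 FPKM in null and 48.8 FPKM in wild-type embryos, and 159.9 and 236 FPKM in null and 153 and 238 FPKM in wild-type oocytes. It fell by 1.38 ± 0.44 on the log2 scale (SE; adjusted p = 0.037). The call was lost without YAP-null GV library 2, wild-type GV library 1 or 2, or either 4-cell library (adjusted p between 0.0543 and 0.292).

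Eef2k, the kinase that phosphorylates and stops eEF2, had 17.6 FPKM in null and 2.60 FPKM in wild-type embryos, and 125 and 111 FPKM in null and 121 and 116 FPKM in wild-type oocytes. It fell by 3.86 ± 0.56 on the log2 scale (SE; adjusted p = 0.0019), and with any 1 library left out its adjusted p was between 0.0025 and 0.0158. In YAP-null embryos it was 6.77 times the wild-type level, and Eif4enif1 was 2.26 times the wild-type level. Eef2, the kinase's substrate, had 406 FPKM in null and 823 FPKM in wild-type embryos, and 276 and 127 FPKM in null and 280.0 and 145 FPKM in wild-type oocytes. It rose by 1.57 ± 0.53 (SE; adjusted p = 0.0444), a call lost without either 4-cell library, wild-type GV library 1 or 2, or YAP-null GV library 2 (adjusted p between 0.0651 and 0.333). The ratio of the Eef2 to the Eef2k level was 23.1 in YAP-null and 316 in wild-type embryos, and 2.21 and 1.15 in YAP-null and 2.31 and 1.25 in wild-type oocytes. The summed oocyte markers, given above, lay in the same order (GV oocytes, YAP-null embryos, wild-type embryos), and their part in the Eef2k and Eif4e3 levels was not tested.

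Elongation factor genes showed the lowest 4-cell median of any role group, at -1.16 over 6 genes. All 6 were lower in YAP-null embryos, where 47.8% of all genes were. Between oocyte libraries 2 and 1 the same 6 genes had medians of -1.09 in null and -0.85 in wild-type oocytes. Eef1a1, which delivers aminoacyl-tRNA, had 559 FPKM in null and 1375 FPKM in wild-type embryos, and 1277 and 544 FPKM in null and 1482 and 584 FPKM in wild-type oocytes. It was the most abundant of the 61 mRNAs in every library but the YAP-null 4-cell one, where Eif5a was higher (704 FPKM). The wild-type embryos and GV libraries 1 were high, and the YAP-null embryos and GV libraries 2 were low, so the 4-cell difference of -1.30 was about as large as the difference between oocyte libraries 2 and 1, -1.23 in YAP-null and -1.34 in wild type. Eef1b2, Eef1g and Eef1d encode subunits of the exchange factor that recharges eEF1A. Eef1g had 74.9 FPKM in null and 233 FPKM in wild-type embryos, and 43.2 and 20.1 FPKM in null and 43.0 and 24.9 FPKM in wild-type oocytes. It rose by 2.05 ± 0.52 (SE; adjusted p = 0.0165), and the call was lost without the wild-type 4-cell library (adjusted p = 0.223); its 4-cell difference of -1.62 was the largest among the genes lower in YAP-null embryos. Eef1b2 had 30.9 FPKM in null and 86.3 FPKM in wild-type embryos, and 44.0 and 31.1 FPKM in null and 53.9 and 41.6 FPKM in wild-type oocytes. The YAP-null embryos and YAP-null GV library 2 were lowest (4-cell difference -1.45, stage difference 0.30 ± 0.39 SE, adjusted p = 0.542). Eef1e1, a component of the multi-synthetase complex, rose by 1.60 ± 0.56 (SE; adjusted p = 0.0495), a call lost when any 1 of 5 libraries was left out, all but YAP-null GV library 1 (adjusted p between 0.0527 and 0.32).

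eIF5A relieves ribosomes stalled at difficult sequences. Eif5a, its general form, had 704 FPKM in null and 1069 FPKM in wild-type embryos, and 270.0 and 231 FPKM in null and 285 and 239.5 FPKM in wild-type oocytes. It rose by 1.76 ± 0.40 (SE; adjusted p = 0.0102), and the call was lost without the wild-type 4-cell library (adjusted p = 0.0685). Eif5a2, the second form, had 6.86 FPKM in null and 4.01 FPKM in wild-type embryos, and 0.0678 and 0.160 FPKM in null and 0.0639 and 0.227 FPKM in wild-type oocytes. It was close to 0 in oocytes and rose by 2.48 ± 0.26 (SE; adjusted p = 0.00066). Without the YAP-null 4-cell library, where it is highest, it fell under the filter and was not tested; with any other library left out its adjusted p was between 0.00176 and 0.00343. It was one of 9 genes higher in YAP-null than in wild-type embryos (0.65). Eif6, which keeps large ribosomal subunits from joining too early, had 469.9 FPKM in null and 466 FPKM in wild-type embryos, and 327 and 162 FPKM in null and 361 and 157 FPKM in wild-type oocytes. The embryo libraries were nearly equal (0.01), and the stage difference of 1.00 ± 0.52 (SE; adjusted p = 0.147) did not pass.

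Both release factor genes rose. Etf1, which reads the stop codon, had 188 FPKM in null and 213 FPKM in wild-type embryos, and 16.9 and 34.6 FPKM in null and 16.5 and 37.0 FPKM in wild-type oocytes. It rose by 2.98 ± 0.47 (SE; adjusted p = 0.00258), and the call was lost without the wild-type 4-cell library (adjusted p = 0.0664). Gspt1, its GTPase partner eRF3a, had 36.9 FPKM in null and 55.1 FPKM in wild-type embryos, and 22.5 and 19.7 FPKM in null and 19.2 and 21.2 FPKM in wild-type oocytes. It rose by 1.09 ± 0.32 (SE; adjusted p = 0.026), a call lost without the wild-type 4-cell library, wild-type GV library 1 or 2, or YAP-null GV library 2 (adjusted p between 0.0596 and 0.141). The 4-cell difference was -0.18 for Etf1 and -0.57 for Gspt1.

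**Figure D4:**
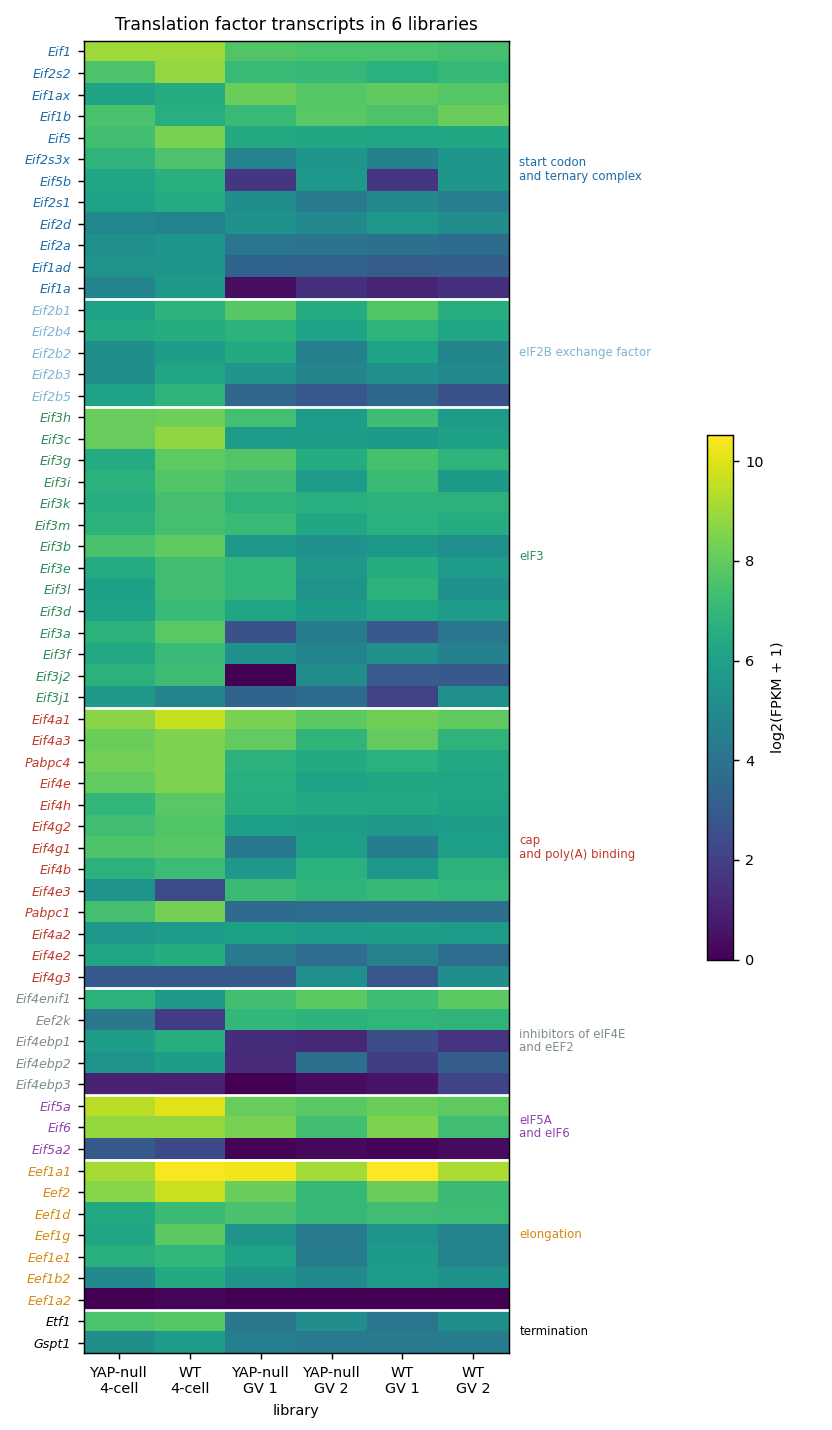
Level of all 61 translation factor genes in each of the 6 libraries as a heat map of log2(FPKM + 1), ordered by role and mean level. Eef1a1 is the most abundant by mean level, same-numbered GV libraries look alike across genotypes, and both embryo columns are brighter than the GV columns for Eif1a, Pabpc1 and Eif4ebp1 and darker for Eef2k and Eif4e3.

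Many mRNAs of the translation machinery begin with a terminal oligopyrimidine (TOP) tract, through which mTOR and LARP1 control their use. The 10 textbook TOP members of the set (Eef1a1, Eef1b2, Eef1d, Eef1g, Eef2, Eif3e, Eif3f, Eif3h, Eif4b and Pabpc1) were all lower in YAP-null embryos, 4 of them by at least 2-fold. Over all genes 47.8% were lower, and 9.97% were lower by at least 2-fold. The median of the TOP members was -0.84, and that of the 50 other genes was -0.45. In the oocytes, TOP members also moved more between libraries of 1 genotype: library 2 minus library 1 had a median of -0.81 in null and -0.71 in wild-type libraries, against -0.22 and -0.11 for the other genes. Between the stages 4 of the 10 rose and 0 fell. Of the whole set 46.7% rose and 6.67% fell, and of all genes 28.2% rose and 27.8% fell.

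The start sites are shown because pyrimidine tracts and the letters bound by TEAD, the DNA-binding partners of YAP, can be read from them. RefSeq starts (build GRCm38.p6) were found for 46 of the 61 genes. A run of at least 8 bases of C or T lying within 10 bases of an annotated start was present in 10 of 46 genes (21.7%), and in 15.8% of all 27025 genes of the table. Of the textbook TOP members only Eef1a1 and Eif3f are among these genes, and whether a run acts as a TOP tract was not tested. The lines run from 20 bases before to the 15th base of the transcript, 5′ to 3′ on the strand of the gene, with the run in capitals. Of the 10 genes, 6 on which results above turn are shown, with 1 of the 3 starts of Eif4enif1. They lie at chr7:108934395-108934429 (plus strand) for Eif3f, chrX:94212637-94212671 (minus) for Eif2s3x, chr16:20498797-20498831 (plus) for Eif2b5, chr9:78481710-78481744 (minus) for Eef1a1, chr15:79075203-79075237 (plus) for Eif3l and chr11:3202999-3203033 (plus) for Eif4enif1.
Eif3f: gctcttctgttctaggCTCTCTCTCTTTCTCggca
Eif2s3x: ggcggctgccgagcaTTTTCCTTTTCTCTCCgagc
Eif2b5: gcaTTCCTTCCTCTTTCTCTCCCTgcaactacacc
Eef1a1: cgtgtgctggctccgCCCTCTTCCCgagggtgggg
Eif3l: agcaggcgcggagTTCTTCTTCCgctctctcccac
Eif4enif1: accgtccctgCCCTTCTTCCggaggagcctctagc

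The runs span 15 bases in Eif3f, 16 in Eif2s3x, 21 in Eif2b5, and 10 in Eef1a1, Eif3l and Eif4enif1. Of the 10 genes with a run 9 were tested between the stages: Eif3f, Eif2s3x, Eif2b5 and Eif4e rose, 4 in all, and 1, Eif4enif1, fell. Of the 9 kept at the 4-cell stage 8 were lower in YAP-null than in wild-type embryos and Eif4enif1 was higher. Over all genes 28.2% rose and 27.8% fell between the stages, and 47.8% were lower in YAP-null embryos. The letters CATTCC, or GGAATG on the other strand, the core known for TEAD proteins, occurred in the 300 bases around the start of 4 of 46 genes (8.70%) and in 16.6% of all genes. The genes were Eif3b, Eif3f, Eif2b5 and Eef2k. In Eif2b5 the letters overlap the pyrimidine run. The match is shown in capitals with 15 bases on each side, on the strand of the gene, at chr16:20498783-20498818 for Eif2b5 and chr7:120851129-120851164 for Eef2k, the genes with the largest stage changes in each direction among these 4.
Eif2b5: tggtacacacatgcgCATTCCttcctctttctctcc
Eef2k: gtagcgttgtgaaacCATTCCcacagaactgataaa

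Genes that control the factors were taken as a separate list of 37, including eIF2 kinases, the mTOR complex and its substrates, CPEB proteins, poly(A)-binding protein partners and recycling factors. Of 36 tested, 16 rose and 4 fell between the stages, where 28.2% of all genes rose and 27.8% fell. Larp1, the repressor of TOP mRNAs, had 83.9 FPKM in null and 136 FPKM in wild-type embryos, and 1.12 and 4.98 FPKM in null and 1.08 and 4.42 FPKM in wild-type oocytes. It rose by 4.96 ± 0.60 (SE; adjusted p = 0.000997), and the call was lost without the wild-type 4-cell library (adjusted p = 0.0505). Abce1, the ribosome recycling factor, rose by 3.66 ± 0.36 (SE; adjusted p = 0.000531), Dph2, needed for the diphthamide residue of eEF2, by 3.31 ± 0.43 (SE; adjusted p = 0.00136), and Abcf1, which binds eIF2, by 3.24 ± 0.88 (SE; adjusted p = 0.0205). Cpeb1, which holds stored oocyte mRNAs and directs their polyadenylation, had 17.5 FPKM in null and 4.07 FPKM in wild-type embryos, and 229 and 357 FPKM in null and 236 and 352 FPKM in wild-type oocytes. It fell by 4.90 ± 0.53 on the log2 scale (SE; adjusted p = 0.000693), and with any 1 library left out its adjusted p was between 0.000775 and 0.0203. Eif2ak4 (GCN2), Pdcd4, an eIF4A inhibitor, and Eif2ak1, the heme-regulated eIF2 kinase, fell by 1.87, 1.57 and 1.32 on the log2 scale. With any 1 library left out the largest adjusted p was 0.0223 for Abce1 and 0.0363 for Dph2. Abcf1 lost its call without the YAP-null (adjusted p = 0.134) or the wild-type 4-cell library (adjusted p = 0.273), and Eif2ak4 without the wild-type one (adjusted p = 0.23). Pdcd4 and Eif2ak1 lost theirs without either 4-cell library or either GV library 2 (adjusted p between 0.076 and 0.396 for Pdcd4 and between 0.0548 and 0.15 for Eif2ak1). At the 4-cell stage 4 of the 36 were at least 2-fold higher in YAP-null embryos (17.7% of all genes were) and 5 at least 2-fold lower (9.97%). The median was -0.23 over the list and 0.05 over all genes. Cpeb1 was 1.87 and Paip1, a poly(A)-binding protein partner, 1.86 higher, and Cpeb4 1.29 higher. Mcts1, a recycling factor, differed by -1.86 and Dph1, another diphthamide gene, by -1.58.

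In GV oocytes no translation factor gene was called different between the genotypes. limma called 0 of 59 genes at an adjusted p under 0.05, where it called 0.00% of all 10462 genes. At an unadjusted p under 0.05 it also called 0 of the 59, where the whole table had 5 genes higher (0.0478%) and 17 lower (0.162%). limma without the trend, and with the replicate number as a block, also called 0 of the 59. The median difference, YAP-null minus wild type, was 0.02, and -0.00 over all genes. With 2 libraries a group the smallest p of an exact permutation test is 0.333, and a difference that missed the threshold is not shown to be absent. The groups did not overlap for Eif2a, Eif1ad and Eif5, which were higher in YAP-null oocytes (5.10% of all genes were), and for Eif4ebp1 and Eif4ebp3, which were lower (5.68%).

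The smallest unadjusted p among the lower genes belonged to Eif4ebp3, the third eIF4E-binding protein, with 1.06 FPKM in null and 0.974 FPKM in wild-type embryos, and 0 and 0.260 FPKM in null and 0.522 and 3.34 FPKM in wild-type oocytes. Its GV difference was -1.19 (unadjusted p = 0.102 in limma, where the exact permutation floor is 0.333), with every value at or below 3.34 FPKM. Eif4ebp1, whose values are given above, differed by -0.79 (unadjusted p = 0.149 in limma, same exact permutation floor). Eef1b2 and Eif1b differed by -0.35 and -0.37. Among the higher genes, Eif2a differed by 0.28, Eif4h by 0.19, Eif1ad by 0.18 and Eif2s2 by 0.17, and none had a smaller limma p than the 0.449 of Eif2a. The Benjamini-Hochberg adjusted p was 1.00 for each of these 8 genes in limma.

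Oocyte libraries with the same number resembled each other across the genotypes more than libraries of the same genotype did. Within number 1 at least a 2-fold difference between the genotypes was found for 1 gene that was higher in YAP-null oocytes (0.574% of all genes were) and 2 that were lower (1.08%), and within number 2 likewise for 1 (0.631%) and 2 (0.879%). Eif5b was at 2.19 FPKM in null and 2.01 FPKM in wild-type GV library 1, and at 47.4 and 47.2 FPKM in library 2. Eif4g1 was at 18.3 FPKM in null and 20.4 FPKM in wild-type library 1, and at 63.3 and 60.3 FPKM in library 2. Eif4g3 was at 6.93 FPKM in null and 6.36 FPKM in wild-type library 1, and at 38.1 and 35.5 FPKM in library 2. Eif5b has the longest median transcript of the 59 genes, at 7797 bases, and Eif4g3 has one of 5289 bases. Eef1a1 and Eif3h, given above, had their higher oocyte values in library 1. In YAP-null oocytes 7 genes were at least 2-fold higher in library 2 (18.0% of all genes were) and 13 at least 2-fold lower (8.76%). In wild-type oocytes 9 were higher (16.5%) and 9 lower (6.82%).

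The difference between library 2 and library 1, averaged over the genotypes, went with transcript length. Of the 10 genes with a median protein-coding transcript of at least 3000 bases in the GENCODE annotation, 6 were higher in library 2 (median 0.82), and of the 49 shorter genes 37 were lower (median -0.29). The length is a median over annotated transcripts and may differ from that of the form present in the oocytes. Just under the threshold, Eif4g1 (2848.5 bases) and Eif3a (2975.5) were higher in library 2 and Gspt1 (2898) slightly lower. Just above it, Pabpc4 (3034.5) and Eef2 (3089) were lower. The counts thus depend on where the threshold lies, and they were not made over all genes. Spearman's rho across the 59 genes was 0.394 and across the 9561 genes of the whole table with a length 0.290, as a description of genes that share 4 libraries. Over the same genes, the difference between the YAP-null and the wild-type 4-cell library had a rho of 0.143 with length. Library number and genotype are balanced in the oocytes, whereas the embryo libraries have no second number, so a difference of this kind between the embryo libraries and their genotype cannot be told apart.

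**Figure D5:**
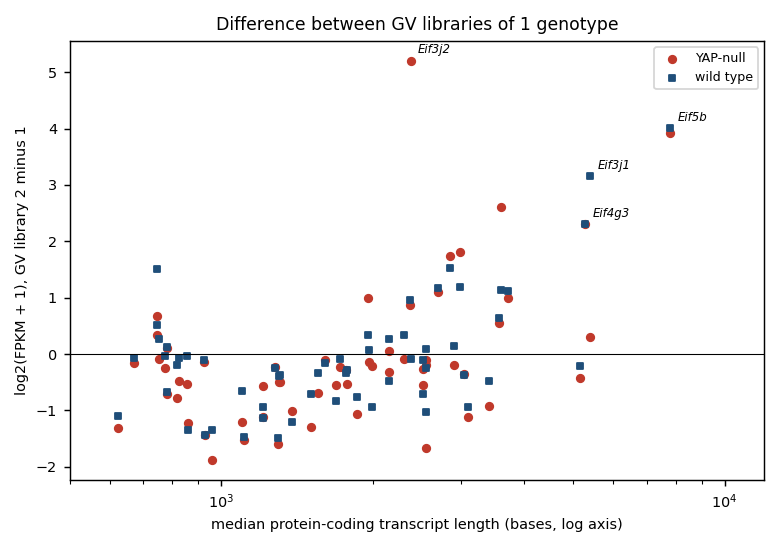
Difference between GV library 2 and GV library 1 in log2(FPKM + 1) for the 59 translation factor genes, against median transcript length in bases on a log axis, with YAP-null as circles and wild type as squares. Both genotypes fall together for most genes; the longest transcript, that of Eif5b, lies highest among genes where they do, and Eif3j1 and Eif3j2 are those where they part most.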

How the data were processed

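Polyadenylated RNA of 6 libraries was sequenced on an Illumina instrument in pairs, per the labels' protocols. The submitters' processing notes name CASAVA 1.8, TopHat and mm9; which tool and annotation gave the gene values is not stated. The authors deposited 1 table per library with an FPKM value, normalised to transcript length and library size, for each of 23813 lines; 1 failed line was dropped and 260 symbols at several loci were summed, none of them in the set. The deposited FPKM bounds were not used for tests, since only 33 of 61 genes lay inside their own bounds in every library. Depth is unknown.

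Values were used as deposited on log2(FPKM + 1), for genes averaging 1 FPKM or more in the libraries compared. limma 3.58.1 with a mean trend (R 4.3.3, two-sided, Benjamini-Hochberg over all genes tested, 0.05) compared 2 YAP-null with 2 wild-type GV libraries without a replicate block, and the stages over 6 libraries with genotype as a term. The scripts were tested on simulated data. The 4-cell genotypes, with 1 library each, were compared by a 2-fold rule on the same scale. The gene set, role groups and lists were chosen with earlier results of these data known. Values in every library are given for the most abundant genes of each role group (2, or 4 for eIF3 and cap binding), for up to 8 genes per direction that passed the stage test, for the 8 per direction with the largest 4-cell difference (at least 1.5-fold, mean 10 FPKM) and for the 4 per direction with the smallest GV p; Eif5b, Eif4g1, Eif4g3, Eif5a2 and others were added after their values were seen. For the regulators, up to 4 per direction at a mean of 10 FPKM were named. 13 genes overlap another gene model in mm9, most of them a small RNA listed at 0. Starts came from the RefSeq promoter table (GRCm38.p6) and lengths from GENCODE; no coordinates were carried between builds. Alternatives were other pseudocounts, filters, scalings, limma without trend, the replicate block and leaving out each library.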

Additional observations from a re-analysis of the deposited data

Results flagged for a closer look

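Of the genes at least 2-fold apart between the embryo libraries, Eif3l and Eif5 had the opposite sign in both numbered pairs of oocyte libraries. Genes with smaller embryo differences showed it too, such as Eif3i (-0.91, with 0.09 and 0.10) and Eif4h (-0.86, with 0.16 and 0.22). Over the set 51 of 60 genes were lower in YAP-null embryos (47.8% of all genes were), and 34 of 59 were higher in YAP-null oocytes. The share of all genes with opposite signs was not counted. Eif3l was lower in YAP-null than in wild-type embryos (-1.24), while in oocytes YAP-null was above wild type in both numbered pairs, by 0.16 in libraries 1 and 0.11 in libraries 2. Eif5 was lower in YAP-null embryos (-1.06) and higher in YAP-null oocytes by 0.21 and 0.00. The difference between the stages was not tested, and the oocyte differences were small beside the spread between oocyte libraries.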

How the results depend on the processing

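In GV oocytes 0 genes were called under each alternative run, also with a replicate block, and the median stayed within 0.16 of 0 except without YAP-null GV library 2: rescaling to the same sum gave -0.13 (all genes -0.13), and leaving out 1 library gave -0.16 to 0.19. At the 4-cell stage the count at least 2-fold lower was 6 with the same FPKM sum, 18 with median-ratio scaling and 5 with quantile normalization, where it was 10 as deposited. The count at least 2-fold higher was 5 with the same sum, and the median was -0.32 with the same sum and -0.70 with median-ratio scaling; in each the median lay below that of all genes (0.23 and -0.14). The stage median was 1.11 with a pseudocount of 5 FPKM, 1.49 with median-ratio scaling and 1.17 with quantile normalization. Leaving out 1 library gave stage medians of 1.00 to 1.51, with 9 to 29 genes called higher and 2 to 4 lower. With the replicate block 36 genes rose and 5 fell between the stages, the 28 and 4 among them. Same-numbered oocyte libraries deviated together (r = 0.849 over 10462 genes), but with 2 pairs, and labels that tie the number to nothing, they share only a number. The oocyte median changed sign with the same sum and without YAP-null library 1 or wild-type library 2; the gene differences recomputed under the alternatives did not. Of the 28 and 4 stage calls, Eif3j2, Eef2 and Eef1e1 were lost at a pseudocount of 0.1 FPKM and without a filter, Eif4enif1 without a filter, Eef2 and Eef1e1 with median-ratio scaling, Eef1e1 with quantile normalization, and Eif5a2, no longer tested, at a filter of 5 FPKM. Depth is unknown, so low values such as those of Eif4ebp3 and Eif5a2 have no counting error.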
